A study of Mus musculus with 8 samples.

Results

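The 2 control knockdown lines of a Taf5 knockdown study in mouse embryonic stem (ES) cells were compared with the cells they came from. The members are the arrays whose genetic modification is given as the control knockdown, 4 of the 8 arrays of the series. Both lines were derived from IB10 E14 ES cells by transduction with a pLKO-puro lentivirus that expresses a control short hairpin RNA, puromycin selection, and the picking and expansion of single resistant colonies. Each line is therefore 1 clone. All cells were kept on gelatinized plates in serum medium with LIF, the cytokine that maintains mouse ES cells. Each line was grown in duplicate, and RNA of each culture was hybridised with a pool of parental ES cell RNA on a dual-colour array, with the dyes exchanged between the 2 cultures. The other 4 arrays hold 2 Taf5-kd lines, made the same way with a hairpin against Taf5, a subunit of the general transcription factor TFIID, and their values are given only beside those of the control-kd lines, because all 8 arrays share the parental pool.

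ES cells cultured in LIF resemble the naive epiblast of the preimplantation embryo. Naive cells are held by a circuit of transcription factors that includes Tbx3, Esrrb, Klf4, Klf5 and Nanog, while primed cells of the later epiblast lose these factors and gain others such as Pou3f1. Cells that spread on a substrate build actin stress fibres, which frees the coactivators of the transcription factor SRF and allows YAP to act with TEAD factors in the nucleus.

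Every value below is a log2 ratio of a control-kd sample over the parental pool unless another quantity is named, on which each unit is a 2-fold step. The pool is a single reference RNA, so a test of the ratio against 0 leaves out the spread among parental cultures. The line was the replicate: the 2 arrays of a line were averaged, and the mean of the control-kd lines was tested against 0 with limma's moderated test (n = 2 lines, the spread estimated from the 2 control-kd and 2 Taf5-kd lines), with Benjamini-Hochberg adjusted p under 0.05 as the threshold for a call. With 1 control-kd line left out, 1 line remains and the spread is taken from the Taf5-kd lines alone. Such a fit is no replicated test. Across probes, the 2 arrays of control-kd line 1 correlated at r = 0.956. The median signal of the sample channel lay between 123 and 186 intensity units on the 8 arrays over a background of 35 to 39.5, and the share of mouse probes detected above that background was 90.9 to 98.7%. The probes of the ES cell markers Pou5f1, Sox2 and Nanog were above background on all 4 control-kd arrays.

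Of 40820 probes tested, 9962 (24.4%) were called, 3932 (9.63%) of them higher and 6030 (14.8%) lower in the control-kd lines than in the parental pool. Of the called probes, 9918 lay on the same side of 0 on all 4 arrays. With each gene represented by its brightest probe, 5297 of 18236 genes with a symbol (29.0%) were called, 2111 (11.6%) higher and 3186 (17.5%) lower, and the median over all these genes was 0.0005. Most changes were small. A difference of at least 2-fold was reached by 483 called genes, 69 higher and 414 lower, and at least 4-fold by 56 genes, of which 2 were higher and 54 lower. The authors' deposited table of the same comparison has p under 0.05 for 3230 of these probes, and 3114 of them were also called here. Most of the 9962 probes called here were thus not under 0.05 in that table. Among these were the brightest probes of Pou5f1, Nanog, Taf13, Dusp4, Sparc and Nusap1. Probes of a gene did not always move together: of 145 other probes of the called genes under the naming rule, 78 were called in the same direction, 2 in the opposite one, and the rest not at all. Those of Tcf7l2, for example, ran from -0.38, called lower, to 0.21, not called.

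Taf5 itself was 0.49 and 0.58 on the arrays of line 1 and 0.18 and 0.16 on those of line 2. Its mean of 0.35 ± 0.10 (SE) did not pass the test (adjusted p = 0.0674), and the estimate was 0.53 with line 2 left out. In the Taf5-kd lines the same ratio was -1.17 and -1.13. Its paralog Taf5l, a subunit of the SAGA coactivator, was lower in the control-kd lines, by -0.49 ± 0.06 (SE, adjusted p = 0.011), but not with line 1 (adjusted p = 0.0501) or line 2 (adjusted p = 0.0601) left out. The TFIID list of 18 tested genes also holds Taf5l, its only member called lower. Against 11.6% higher among all genes, 6 of its members were called higher, and the median was 0.14. The number higher was 3 without line 1 and 5 without line 2, and 1 with median-centred scanner values. Among them Taf7 was higher by 0.63 ± 0.05 (SE) and Taf13 by 0.73 ± 0.15 (SE). Taf13 was 0.44 and 0.41 in line 1 against 1.02 and 1.04 in line 2, and its call was lost when the control-kd lines were fitted alone (adjusted p = 0.0841).

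The 15 largest falls ran from Gbp2 at -2.61 to Prss23 at -4.69. Prss23, a secreted serine protease, was -4.75 and -4.86 on the arrays of line 1 and -4.56 and -4.57 on those of line 2, a mean of -4.69 ± 0.07 (SE, adjusted p = 0.00425) on its brightest probe, while its other probe was at -0.12 and not called. The keratins Krt18 and Krt8, which pair to form the intermediate filaments of simple epithelia, were at -4.14 ± 0.37 and -3.45 ± 0.39 (SE). Anxa3, a calcium-dependent membrane-binding protein, was at -3.77 ± 0.15 (SE), and its 4 arrays lay between -3.88 and -3.64. Slc39a8, an importer of zinc and manganese, was -3.98 and -4.23 in line 1 and -3.14 and -3.12 in line 2. The matrix genes Thbs1 and Col1a1, for thrombospondin 1 and a chain of type I collagen, were at -3.41 ± 0.11 and -3.40 ± 0.37 (SE) on their brightest probes; the others were at -0.80 and -0.77 for Thbs1 and -0.51 and -0.03 for Col1a1. On the brightest probes all arrays of both lines were far below 0 for these genes, which the naming rule required to lie on 1 side. Other Slc39a8 probes were at -1.51, called lower, and at 0.38, not called. In the Taf5-kd lines the ratio of Thbs1 was -2.02 and -1.60 and that of Prss23 was -1.37 in each.

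Secreted and membrane genes were also among the largest falls. Prtg, a cell surface receptor of the immunoglobulin family, was at -2.80 ± 0.12 (SE). Wls, which escorts Wnt ligands to the cell surface, was at -2.62 ± 0.16 (SE) and Wnt3, a Wnt ligand, at -3.05 ± 0.35 (SE). Igfbp3, which binds insulin-like growth factors outside the cell, was at -3.23 ± 0.54 (SE) on its brightest probe. Its other probes were at -0.48 and -1.58 and not called. Gbp2, an interferon-induced GTPase, was at -2.61 ± 0.42 (SE). The 4 control-kd arrays of Wnt3 lay between -3.15 and -2.97, and those of Igfbp3 between -3.37 and -3.13. The Taf5-kd lines, whose spread enters these errors, differed from each other: Igfbp3 was 0.83 and -1.40 there and Gbp2 1.24 and -0.47. With 1 control-kd line, the calls of Igfbp3 (adjusted p = 0.11 without line 1, 0.0962 without line 2), Gbp2 (0.0878 and 0.1) and Wnt3 (0.0564 and 0.0554) were lost, as were those of Krt8 without line 1 (adjusted p = 0.0564) and Col1a1 without line 2 (0.0507).

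**Figure D1:**
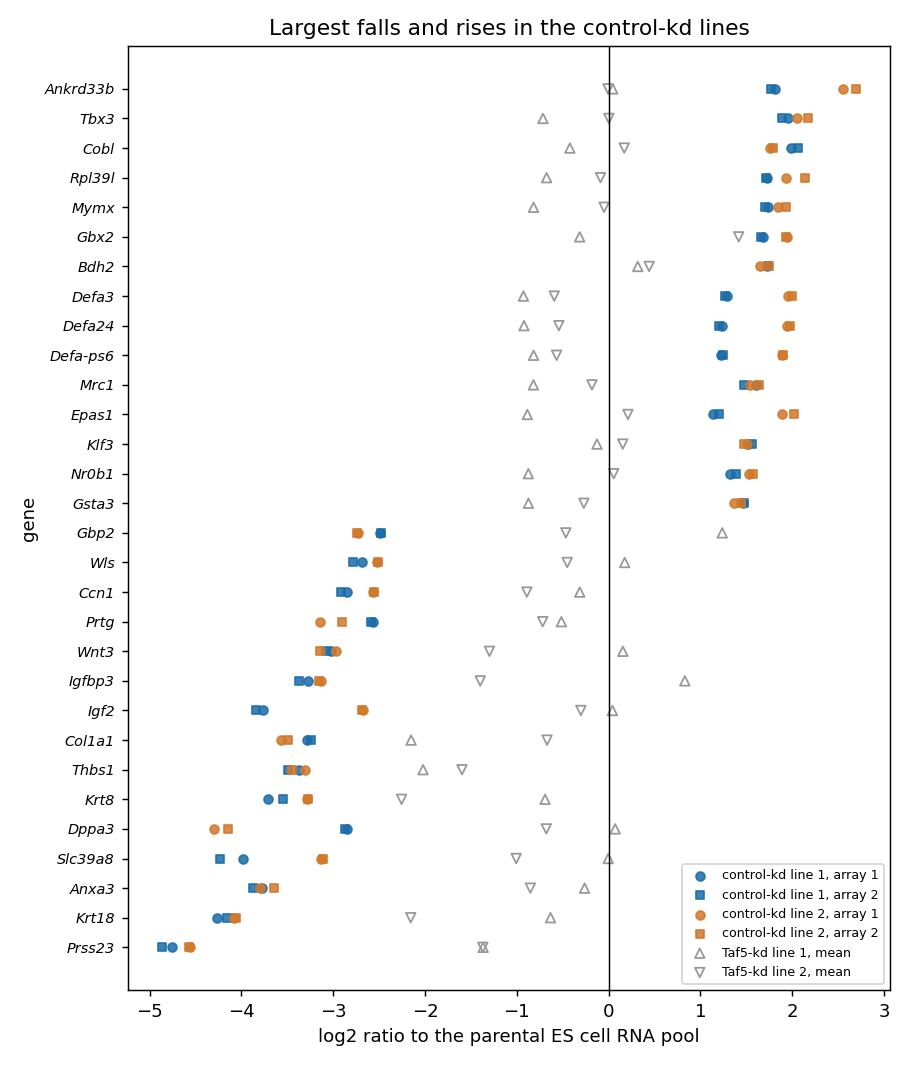
Log2 ratio to the parental ES cell RNA pool (x axis) of the genes with the 15 largest rises and 15 largest falls among those called in the control-kd lines (y axis), with each control-kd array as a filled point and the mean of each Taf5-kd line as an open triangle. All control-kd arrays of a gene lie on 1 side of 0, as the rule for naming these genes requires. The 2 lines separate for genes such as Dppa3, at -2.85 and -2.87 in line 1 and -4.30 and -4.15 in line 2.

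The largest rises were smaller. Ankrd33b, an ankyrin repeat protein, was 1.81 and 1.77 in line 1 and 2.55 and 2.69 in line 2, a mean of 2.21 ± 0.21 (SE, adjusted p = 0.00732). Tbx3, a T-box factor of the naive state, followed at 2.02 ± 0.18 (SE), with arrays of 1.96, 1.88, 2.06 and 2.17. Another Tbx3 probe was 0.18 and 0.12 in line 1 and 0.88 and 1.02 in line 2 and was not called. Cobl, an actin nucleator, was at 1.90 ± 0.16 (SE), Rpl39l, a ribosomal protein paralog, at 1.87 ± 0.17 (SE), and Bdh2, a dehydrogenase, at 1.71 ± 0.05 (SE). Mymx, a muscle fusion peptide, was at 1.81 ± 0.19 (SE), Mrc1, the macrophage mannose receptor, at 1.56 ± 0.16 (SE), and Gsta3, a glutathione transferase, at 1.44 ± 0.15 (SE). The alpha-defensin family gave 3 of the 15 rises, Defa3 at 1.63, Defa24 at 1.59 and Defa-ps6 at 1.57. These near-identical genes may share signal on the array, so they cannot be counted as separate observations. Epas1, a hypoxia-inducible transcription factor subunit, was 1.13 and 1.20 in line 1 against 1.89 and 2.01 in line 2. Klf3 was at 1.51 ± 0.08 (SE) on its brightest probe, while another of its probes was called lower at -0.19. The call of Epas1 was lost without line 1 (adjusted p = 0.0746) or line 2 (0.174), and that of Mymx without line 2 (0.0504).

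Genes of naive pluripotency were mostly higher in the control-kd lines. Of 20 tested among 21 listed, 11 were called higher and 1 lower, with a median of 0.76 against 0.0005 over all genes. Tbx3, Gbx2, Nr0b1 and Esrrb led. Gbx2, a homeobox factor downstream of LIF signalling, was 1.69 and 1.66 in line 1 and 1.94 and 1.93 in line 2, a mean of 1.80 ± 0.43 (SE, adjusted p = 0.0492). Nr0b1, an orphan nuclear receptor, was at 1.45 ± 0.23 (SE) and Esrrb, another orphan receptor, at 1.34 ± 0.12 (SE), with a dimmer Esrrb probe at -0.07 and not called. The member called lower was Dppa3, a maternal factor that protects against DNA demethylation, at -3.54 ± 0.38 (SE). The number called higher was 6 with line 1 left out and 8 with line 2 left out. Gbx2 lost its call without either line (adjusted p = 0.166 and 0.201), without Taf5-kd replicate 1 (0.0515) or 3 (0.0522) and when only 1 probe per gene was tested (0.0523), while Nr0b1 lost it without either line (0.0833 and 0.102).

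The LIF response, the core circuit and general ES cell markers each had more members called higher than lower. Among all genes 11.6% were called higher and 17.5% lower. Among 17 tested LIF and STAT3 response genes, 6 were higher and 3 lower, with a median of 0.14, and the number lower stands near the share of all genes. Klf5 and Klf4, Krüppel-like factors of the naive circuit, were at 0.97 ± 0.08 and 0.92 ± 0.08 (SE). Of 16 core pluripotency genes 6 were higher and 2 lower, with a median of 0.25, and of 12 ES cell markers 5 were higher and 0 lower. Without line 1 each of these 3 lists had 3 members higher, and without line 2 the numbers were 2, 2 and 3. Nanog was 1.03 and 1.09 in line 1 and 0.61 and 0.62 in line 2. Pou5f1, which encodes Oct4, was 0.39 and 0.30 in line 1 and 0.89 and 0.80 in line 2. Sox2 was at 0.40 ± 0.06 (SE). The RNA-binding protein gene Lin28b and the growth factor gene Gdf3 were the core members called lower, at -0.78 ± 0.12 and -0.75 ± 0.11 (SE). The other probes of Lin28b lay between -0.28 and -0.02 and were not called. Pou5f1 lost its call without line 2 (adjusted p = 0.119), without control-kd replicate 1 (0.57, adjusted p = 0.0561) and without Taf5-kd replicate 3 (0.0552), Gdf3 without line 2 (0.0758), Sox2 without line 1 (0.0693), and Lin28b with the control-kd lines fitted alone (0.0515).

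**Figure D2:**
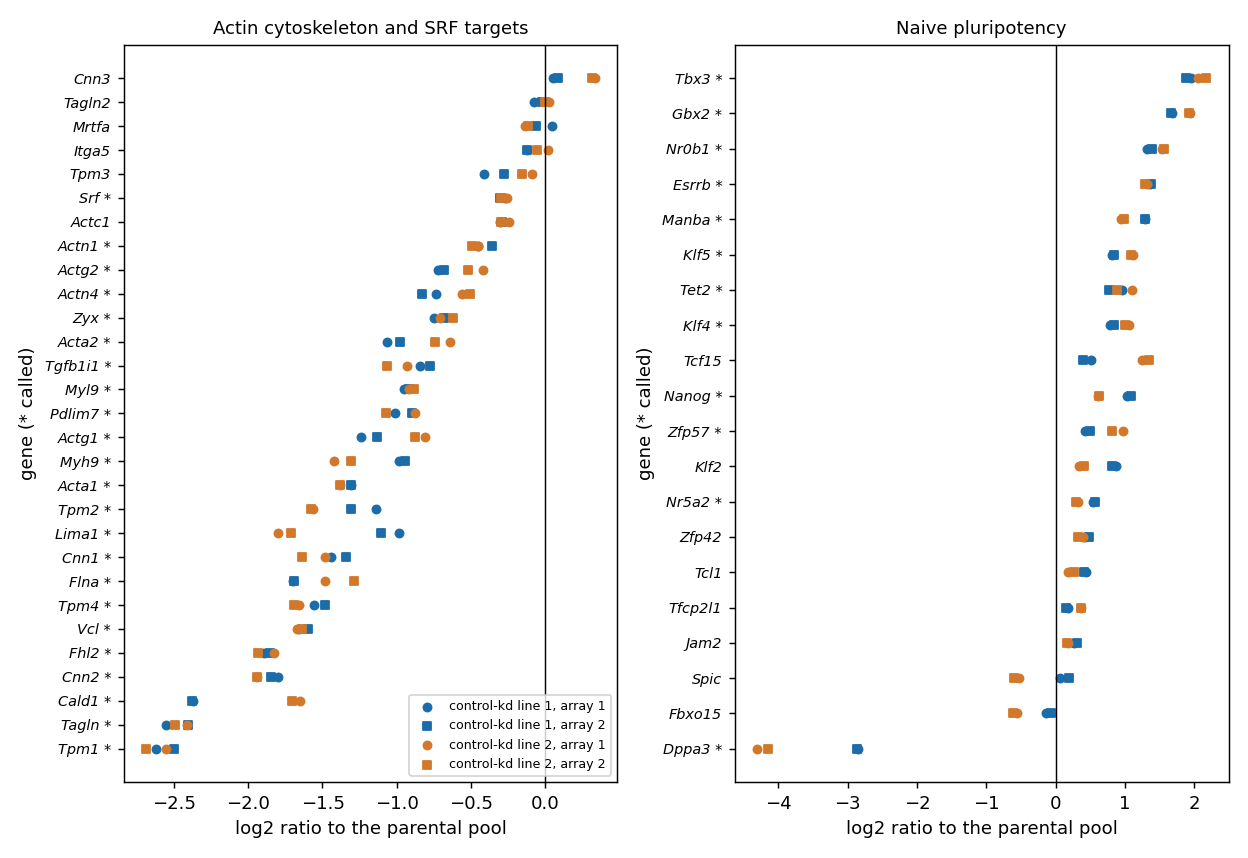
Log2 ratio to the parental pool (x axis) of every tested member of the actin and SRF list (left) and of the naive pluripotency list (right), with each control-kd array as a point, blue for line 1 and orange for line 2, and an asterisk on the genes called. In the left panel 23 of 29 members are called and all of these lie below 0, and in the right panel 11 of 20 are called above 0 and Dppa3 below it.

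The lists of the primed epiblast and of early lineages had more members called lower than higher. So did all genes, with 17.5% lower and 11.6% higher. Of 17 primed epiblast genes, 8 were lower and 2 higher, with a median of -0.58. Fzd2, a Wnt receptor, was at -2.10 ± 0.04 (SE), and its 4 arrays lay between -2.15 and -2.04. Pou3f1, a POU factor of the primed epiblast, was -1.78 and -1.86 in line 1 and -1.21 and -1.22 in line 2. Cdh2, N-cadherin, was at -1.41 ± 0.07 (SE) on its brightest probe. Another of its probes was called lower at -0.34, and the rest lay between -0.09 and 0.05 and were not called. Among 21 genes of the primitive streak and mesoderm 0 were higher and 4 lower, a share near that of all genes, and 1 and 0 were lower without line 1 and line 2. Among 16 neuroectoderm genes 0 were higher and 4 lower, with 2 and 3 lower without line 1 and line 2. Sox11, a neural SOX factor, was at -1.50 ± 0.17 (SE), and Nes, the neural intermediate filament nestin, at -1.24 ± 0.07 (SE). Cdx2, which specifies trophectoderm, was at -1.18 ± 0.23 (SE) but lost its call without line 1 (adjusted p = 0.151) or line 2 (0.123).

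Of 20 trophectoderm genes 11 were lower and 1 higher, with a median of -0.55, and the number lower was 7 with either line left out. Besides Krt18 and Krt8, Id2, which blocks DNA binding by its helix-loop-helix partners, was -2.48 and -2.47 in line 1 and -2.12 and -2.02 in line 2. In 21 epithelial and mesenchymal genes 17 were lower and 1 higher, with a median of -0.84. The claudins Cldn7 and Cldn6, which seal tight junctions, were at -2.44 ± 0.28 and -2.18 ± 0.19 (SE). Cdh1, which encodes E-cadherin, was at -2.04 ± 0.17 (SE) and is named here after its values were seen. Cldn7 lost its call without either line (adjusted p = 0.0516 and 0.0554), and the count of 17 fell to 11 without line 1 and 9 without line 2.

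The actin cytoskeleton and SRF target list was largely lower in both lines. Of 29 tested among 30 listed, 23 were lower and 0 higher, against 17.5% lower among all genes, and the median was -0.96. Tpm1, an actin-binding tropomyosin, was -2.62 and -2.50 in line 1 and -2.56 and -2.69 in line 2. Tagln, the smooth muscle actin-binding protein transgelin, was at -2.47 ± 0.13 (SE), and Cnn2, a calponin, at -1.88 ± 0.04 (SE). Cald1, caldesmon, was -2.37 and -2.38 in line 1 and -1.65 and -1.70 in line 2. Of 16 YAP and TEAD target genes 10 were lower and 0 higher, with a median of -0.79. The matricellular genes Ccn1 and Ccn2 were at -2.72 ± 0.16 and -2.23 ± 0.18 (SE), and F3, tissue factor, at -2.15 ± 0.21 (SE). Of 14 annexin and S100 genes 7 were lower and 3 higher. S100a6, a calcium-binding protein, was at -2.57 ± 0.20 (SE), and Anxa1 was -2.27 and -2.21 in line 1 and -1.33 and -1.32 in line 2, with its call lost without line 1 (adjusted p = 0.0975).

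SRF binds a site named the CArG box, a run of A and T bases between CC and GG, and TEAD factors bind GGAATG. RefSeq windows of assembly GRCm38.p6, from 250 bases before to 50 after a transcription start, were searched for both on both strands. Of the 26 SRF list members with a window, 9 (34.6%) held a CArG box, against 488 of 27025 genes (1.81%). Among the 20 members called lower 8 (40.0%) held one, and among the 6 not called 1 did. Of the 11 YAP list members with a window, 8 (72.7%) held GGAATG, against 4481 of 27025 genes (16.6%). These lists were compiled from known targets of SRF and of YAP and TEAD factors, so the shares are no independent evidence on either factor. The stretches shown run from 120 bases before to 20 bases after the start, 5′ to 3′ along the gene, with the match in capitals; they were picked as examples with a match near the start, after the values had been seen.
Cnn2 (chr10:79988480-79988619, plus strand): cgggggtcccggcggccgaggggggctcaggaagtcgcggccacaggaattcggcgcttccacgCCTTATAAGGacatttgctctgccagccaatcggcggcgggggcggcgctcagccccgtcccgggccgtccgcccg
Lima1 (chr15:99820130-99820269, minus strand): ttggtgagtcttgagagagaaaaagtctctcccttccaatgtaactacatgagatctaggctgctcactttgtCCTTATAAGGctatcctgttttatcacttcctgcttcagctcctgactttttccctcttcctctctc
Actg1 (chr11:120348476-120348615, minus strand): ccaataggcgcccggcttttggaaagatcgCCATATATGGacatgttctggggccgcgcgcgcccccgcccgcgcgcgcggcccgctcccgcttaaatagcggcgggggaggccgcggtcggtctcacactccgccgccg
Srf (chr17:46556143-46556282, minus strand): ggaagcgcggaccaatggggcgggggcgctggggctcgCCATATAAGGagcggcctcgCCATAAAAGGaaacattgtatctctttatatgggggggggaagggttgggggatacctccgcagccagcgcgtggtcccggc
Ccn1 (chr3:145649966-145650105, minus strand), with GGAATG read on the other strand: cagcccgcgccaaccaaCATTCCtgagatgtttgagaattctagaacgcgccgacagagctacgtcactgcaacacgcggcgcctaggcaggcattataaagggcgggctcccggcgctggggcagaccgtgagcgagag

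Counted from the start, the box of Cnn2 begins at position -56 and that of Lima1 at -47, and Srf, the gene of the factor itself, holds boxes at -82 and -62. Lima1, an actin-bundling LIM protein, was at -1.40 ± 0.18 (SE), Actg1, cytoplasmic gamma-actin, at -1.02 ± 0.13 (SE) and Srf at -0.28 ± 0.03 (SE). Srf lost its call without line 1 (adjusted p = 0.0639) or line 2 (0.0579), and Actg1 without line 1 (0.0634).

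Of 18 paternally expressed imprinted genes 10 were lower and 0 higher, with a median of -0.62, against 17.5% lower and 11.6% higher among all genes. Igf2, a fetal growth factor, was -3.77 and -3.84 in line 1 and -2.68 and -2.69 in line 2. Nnat, neuronatin, was -1.58 and -1.40 in line 1 and -2.49 and -2.61 in line 2, and Plagl1, a zinc finger factor of the imprinted network, was at -1.69 ± 0.08 (SE), above background on 3 of 4 arrays in the sample channel. The ratio of Plagl1 was 2.26 and 2.49 in the Taf5-kd lines. Another Plagl1 probe was at 0.09 in the control-kd lines and not called. Of 19 maternally expressed genes 6 were lower and 1 higher, with 2 and 3 lower without line 1 and line 2. The median of these maternally expressed genes was -0.09. They include Igf2r, the receptor that clears Igf2, at -1.13 ± 0.14 (SE), and Meg3, a long noncoding RNA, at -1.06 ± 0.13 (SE). Of 13 IGF binding and growth factor genes 8 were lower and 1 higher, with Igfbp4 at -1.20 ± 0.09 (SE), and 3 and 4 were lower with line 1 and line 2 left out. Igf2r lost its call without either line (adjusted p = 0.0671 and 0.0567).

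Of 23 FGF and ERK response genes 4 were higher and 4 lower, with 3 higher and 2 lower without line 1 and 1 higher and 4 lower without line 2. Dusp4, an ERK phosphatase, was -2.64 and -2.60 in line 1 and -1.28 and -1.25 in line 2, while Spry4, a receptor tyrosine kinase inhibitor, was higher at 1.35 ± 0.24 (SE). Jun, a subunit of AP-1, was at -1.44 ± 0.09 (SE). Over all genes 11.6% were called higher and 17.5% lower. The FGF and ERK counts stand near these shares, so the genes named do not describe that list. Of 15 Nodal, BMP and TGF-beta response genes 5 were lower and 1 higher, and Lefty1, a Nodal antagonist, was -1.60 and -1.64 in line 1 and -2.95 and -2.92 in line 2. Of 18 Wnt target genes 5 were lower and 0 higher, with 1 and 3 lower without line 1 and line 2, among them Tcf7l2, a TCF factor, at -0.96 ± 0.11 (SE). With 1 line left out the calls of Spry4 (adjusted p = 0.0601 and 0.12) and Tcf7l2 (0.0518 and 0.0542) were lost in both cases, that of Dusp4 without line 1 (0.142) and that of Lefty1 without line 2 (0.0824).

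**Figure D3:**
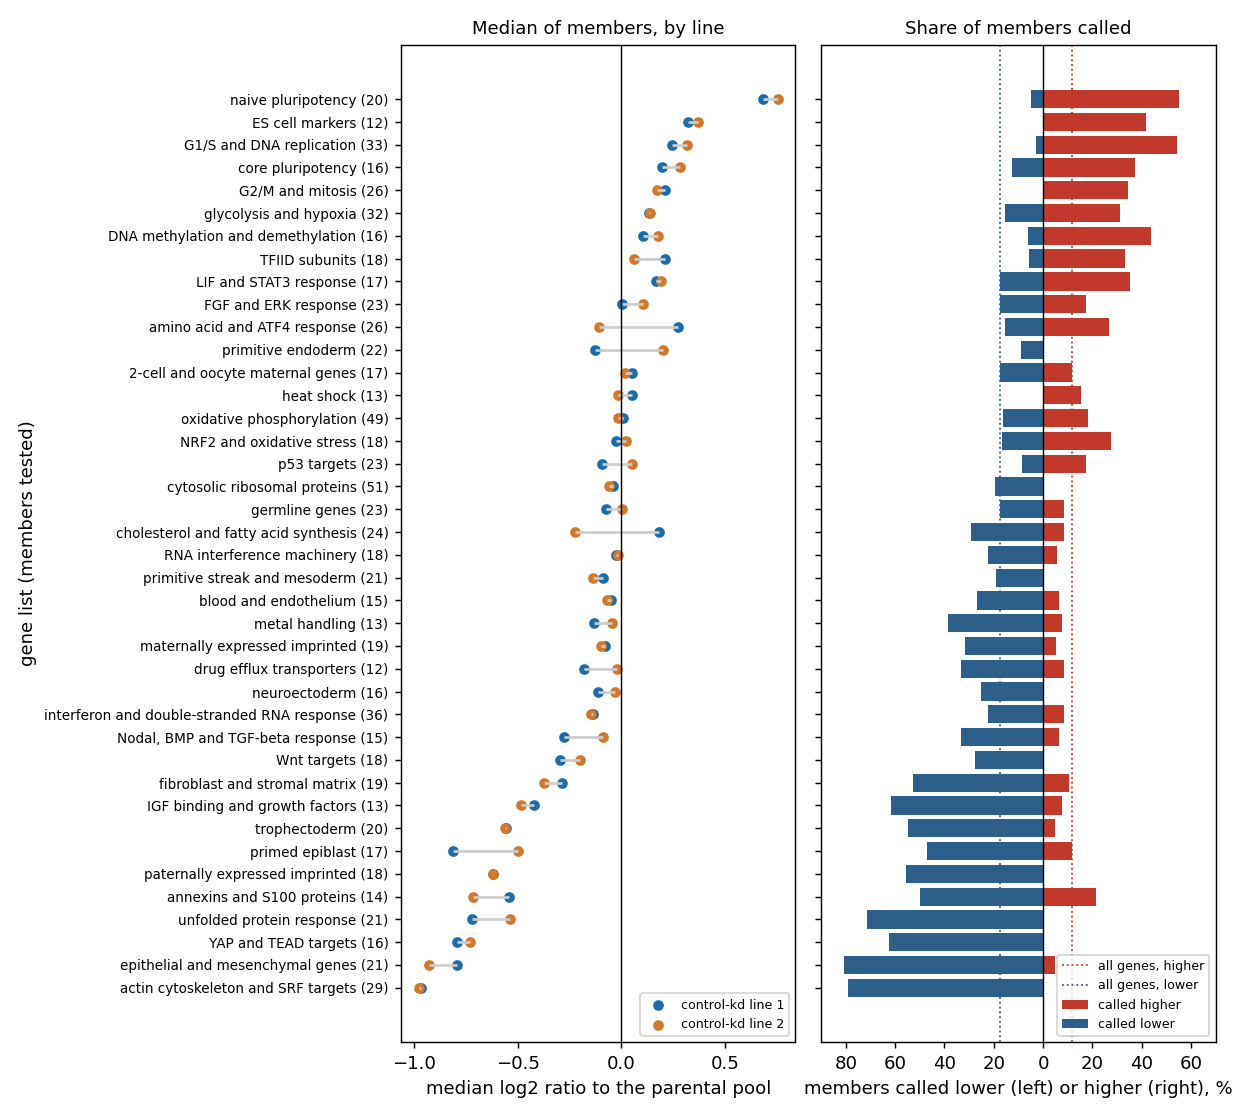
Median log2 ratio to the parental pool over the tested members of each gene list with 10 or more (left, a point for each control-kd line, tested members in brackets), and the share of members called lower or higher in percent (right), with dotted lines at the shares of all genes, 17.5% lower and 11.6% higher. Naive pluripotency stands at the top and the actin and SRF list at the bottom in both lines, and the primitive endoderm list lies on opposite sides of 0, at -0.13 in line 1 and 0.20 in line 2.

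Genes that respond to hairpins, viruses or selection were also examined, since the lines carry a lentivirus and were selected. Of 36 interferon and double-stranded RNA response genes, 8 were lower and 3 higher, with a median of -0.11, and 4 were lower without either line. These counts, and those of the RNA interference and p53 lists, stand near the shares of all genes, 17.5% lower and 11.6% higher, so the genes named from them are single members and do not describe the lists. Irf1, an interferon-response transcription factor, was at -1.87 ± 0.30 (SE), and the antigen presentation genes H2-K1 and B2m at -1.52 ± 0.13 and -1.43 ± 0.18 (SE). Of 18 RNA interference genes 4 were lower and 1 higher, with Dicer1, which processes hairpins, at -0.65 ± 0.06 (SE) and Tnrc6a, a silencing cofactor of Argonaute, at -0.74 ± 0.10 (SE). Of 23 p53 target genes 4 were higher and 2 lower, with 2 and 1 higher without line 1 and line 2, and Perp, a p53 target in epithelial junctions, was at -1.48 ± 0.16 (SE). Of 21 unfolded protein response genes 15 were lower and 0 higher, with a median of -0.63. Its members Canx, a chaperone of the endoplasmic reticulum, and Hyou1, another, were at -1.15 ± 0.04 and -0.97 ± 0.13 (SE). Another Hyou1 probe was at -0.04 and not called. The count of 15 was 1 with median-centred scanner values. Without either line the calls of Irf1 (adjusted p = 0.0959 and 0.0973) and B2m (0.0565 and 0.0629) were lost.

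Cell cycle and glycolysis lists had more members called higher than lower, against 11.6% higher and 17.5% lower among all genes. Of 33 G1/S and DNA replication genes 18 were higher and 1 lower, with a median of 0.30. Pola1, the catalytic subunit of DNA polymerase alpha, was at 0.96 ± 0.08 (SE), and another of its probes was at 0.08 and not called. The member called lower was Cdkn2b, an inhibitor of cyclin-dependent kinases, at -1.28 and -1.12 in line 1 and -0.80 and -0.80 in line 2. Of 26 G2/M and mitosis genes 9 were higher and 0 lower, with Bub1b, a spindle checkpoint kinase, at 0.75 ± 0.10 (SE). Nusap1, a spindle protein, was 1.26 and 1.29 in line 1 against 0.48 and 0.45 in line 2 on its brightest probe. Another of its probes was 0.09 on average and not called. With either line left out the number higher among G1/S genes was 8, and among G2/M genes 2 without line 1. The calls of Cdkn2b were lost without line 1 (adjusted p = 0.195) or line 2 (0.0934), and that of Nusap1 with the control-kd lines fitted alone (0.1). Of 32 glycolysis and hypoxia genes 10 were higher and 5 lower. The number lower stands near the share of all genes, so the transporters named next are single members and do not describe the list. Pdk1, a kinase that restrains pyruvate oxidation, was at 1.22 ± 0.08 (SE), while the lactate transporter Slc16a3 and the glucose transporter Slc2a1 were lower, at -1.45 ± 0.05 and -1.43 ± 0.11 (SE).

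Of 16 DNA methylation and demethylation genes 7 were higher and 1 lower, with 4 and 3 higher without line 1 and line 2. Tet2, which oxidises methylcytosine, was at 0.93 ± 0.09 (SE), and the de novo methyltransferase Dnmt3b at -0.99 ± 0.18 (SE), its call lost without line 1 (adjusted p = 0.143) or line 2 (0.0781). Markers of other cell types that the cultures could hold were examined too. Of 19 fibroblast and stromal matrix genes 10 were lower and 2 higher, and the number lower was 5 without line 1 and 3 without line 2. Fn1, fibronectin, was at -0.80 ± 0.10 (SE) and Col5a1, a fibrillar collagen, at -0.99 ± 0.13 (SE), with its call lost without line 1 (adjusted p = 0.0559) or line 2 (0.0741). Another Col5a1 probe was at 0.09 and not called. The part of such other cell types, and of a change in cell mix rather than RNA per cell, in the changes above was not tested. Among 15 blood and endothelium genes 4 were lower and 1 higher, against 17.5% and 11.6% of all genes, and the number lower was 0 without line 1 and 1 without line 2. Of these, Cd68, a macrophage lysosomal protein, was the only one called higher, at 0.84 ± 0.10 (SE), so it does not describe the list. The median of the list was -0.06.

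The 2 control-kd lines also differed from each other. In a fit on the arrays with a mean for each line and a term for dye, 6074 of 40820 probes (14.9%) were called, 2997 (7.34%) higher and 3077 (7.54%) lower in line 1. Of genes with a symbol 3233 of 18236 (17.7%) were called. For some genes 1 line lay above the parental pool and the other below it or close to it. Srgn, the proteoglycan serglycin, was -0.91 and -0.93 in line 1 and 3.48 and 3.57 in line 2. Cubn, an endocytic receptor of visceral endoderm, was -1.02 and -0.98 against 2.55 and 2.67, with the pool's channel above background on 3 of 4 arrays. Gata6, the primitive endoderm factor, was -0.01 and -0.04 in line 1 and 2.98 and 2.93 in line 2 on its brightest probe; a dimmer probe gave 0.05 and 0.00 against 1.26 and 1.18, and another 0.09 on average. Hs3st1, a heparan sulfate sulfotransferase, was -0.90 and -0.98 against 1.55 and 1.59. None of Srgn, Cubn, Gata6 and Hs3st1 was called against the pool, nor were Fam169b and Pla2g5, a secreted phospholipase. Fam169b was 0.71 and 0.68 in line 1 and -0.55 and -0.53 in line 2, and Pla2g5 0.76 and 0.75 against -0.45 and -0.47.

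Of 22 primitive endoderm genes, 2 were called lower and 0 higher over both lines: Sparc, a matrix protein, at -1.08 ± 0.19 (SE) and the laminin chain gene Lamc1 at -0.54 ± 0.09 (SE). The median of the 22 genes was -0.13 in line 1 and 0.20 in line 2. Sparc was -1.45 and -1.42 in line 1 and -0.75 and -0.68 in line 2. Lamc1 lost its call without line 1 (adjusted p = 0.0879), and Sparc with the control-kd lines fitted alone (0.0576).

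**Figure D4:**
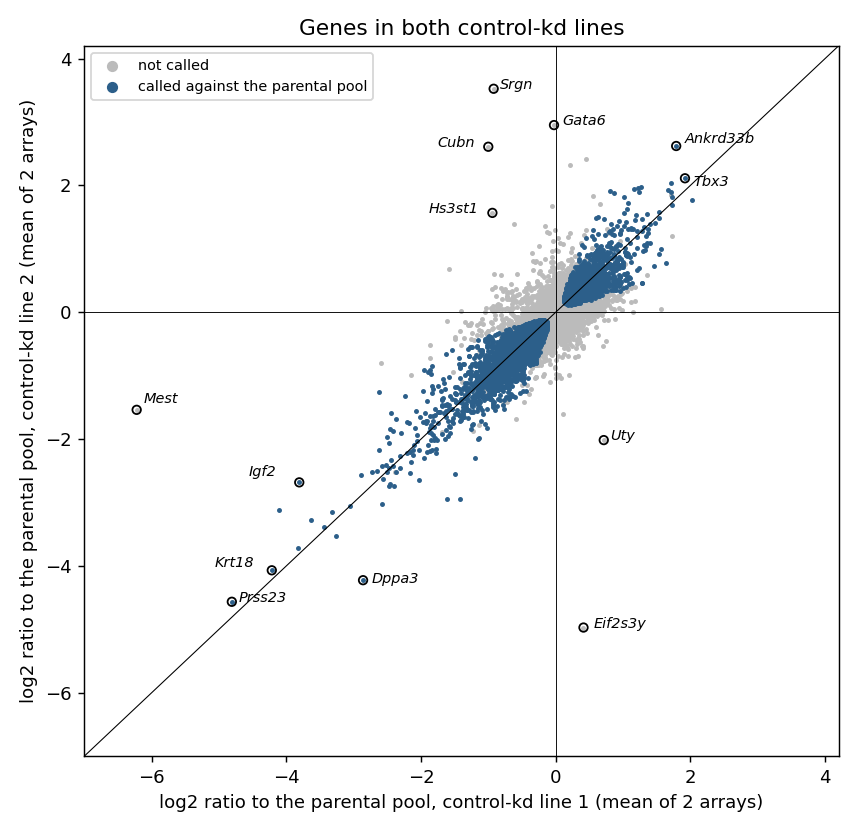
Log2 ratio to the parental pool of each gene in control-kd line 1 (x axis) and line 2 (y axis), each the mean of 2 arrays, with genes called against the pool in blue and the others in grey, and named genes circled. Most called genes lie along the diagonal, while Srgn, Cubn, Gata6 and Hs3st1 lie above 0 in line 2 and not in line 1, and Eif2s3y and Uty lie below 0 in line 2 and not in line 1.

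Of the 6 Y-linked genes tested, Eif2s3y and Uty differed between the lines. Eif2s3y, a Y-linked translation factor subunit, was 0.34 and 0.48 in line 1 and -4.86 and -5.08 in line 2. Uty, a Y-linked histone demethylase relative, was 0.75 and 0.68 in line 1 and -1.95 and -2.08 in line 2, and both genes were above background in the sample channel on 3 of 4 arrays. Another probe of Uty was 0.52 and 0.63 against -1.12 and -1.29. A further one lay below 0 in both lines, at -0.34 and -0.29 against -1.19 and -1.35. The last was -0.03 on average, and none of these was called against the pool. Kdm5d, a Y-linked histone demethylase and the only one of the 6 called against the pool, was -0.20 and -0.56 in line 1 and -0.58 and -0.23 in line 2. The 2 arrays of each line lay far apart beside the line means of -0.38 and -0.40. The difference of Kdm5d between the lines did not pass the test (adjusted p = 0.941). Its call was lost without line 1 (adjusted p = 0.0518) or line 2 (0.0565), and with median-centred scanner values its mean lay on the other side of 0, at 0.058. Mest, a paternally expressed imprinted gene chosen after its values were seen, was -6.36 and -6.08 in line 1 and -1.47 and -1.60 in line 2. Its mean of -3.88 ± 1.16 (SE) did not pass (adjusted p = 0.0833), and the estimate was -6.22 with line 2 left out.

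Chromosomes 8 and 11 stood apart in both control-kd lines. Over the 496 genes of chromosome 8 brighter than the median, the median ratio was -0.148 in line 1 and -0.144 in line 2, and over the 799 of chromosome 11 it was -0.152 and -0.141, against -0.035 and -0.027 over 9094 such genes of all chromosomes. Over genes of any brightness the medians of the 2 lines together were smaller, -0.056 for 891 genes of chromosome 8, -0.055 for 1445 of chromosome 11 and -0.022 for 652 of the X chromosome, against 0.0004 over all chromosomes. Among the genes brighter than the median, 38.3% were called lower and 6.85% higher on chromosome 8, and 36.8% and 6.51% on chromosome 11. Over all chromosomes the shares of such genes were 24.7% and 16.7%. By median ratio over the brighter genes the X chromosome came next, at -0.120 for line 1 and -0.102 for line 2. In the Taf5-kd lines the medians were 0.141 and 0.184 for chromosome 8 and 0.096 and 0.128 for chromosome 11. Without the genes of chromosomes 8 and 11, 8735 of 36630 probes were called, 3733 higher and 5002 lower. With median-centred scanner values the medians of the brighter genes, both control-kd lines together, were 0.008 for chromosome 8 and 0.018 for chromosome 11. The value over all chromosomes was 0.102. Copy number was not analysed here.

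**Figure D5:**
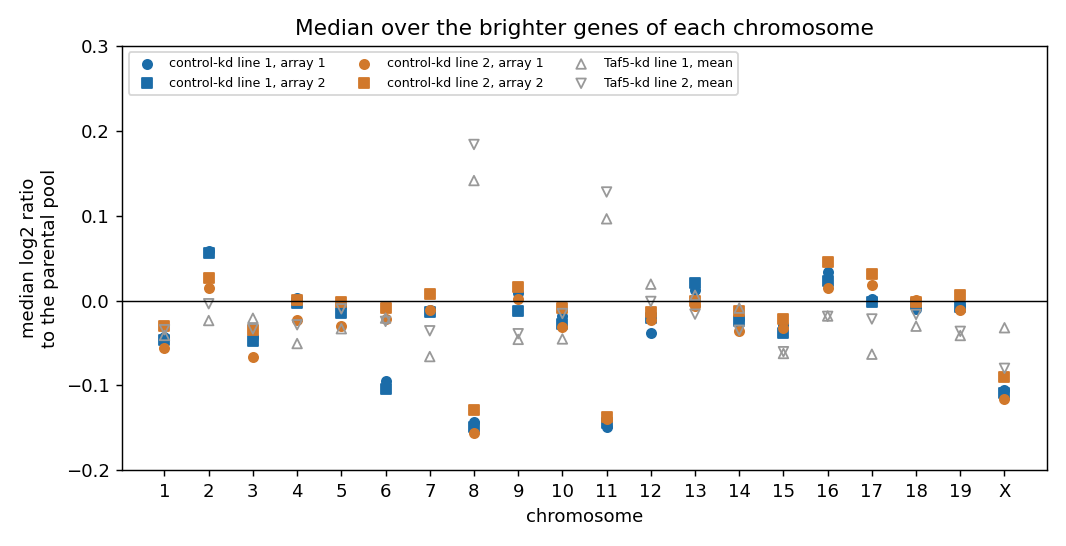
Median log2 ratio to the parental pool (y axis) over the genes brighter than the median on each chromosome (x axis), with each control-kd array as a filled point and the mean of each Taf5-kd line as an open triangle. Chromosomes 8 and 11 lie lowest on all 4 control-kd arrays and above 0 for both Taf5-kd lines.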

How the data were processed

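Per the file headers, the scanner tables hold each spot's mean intensity and local background in 2 channels, and these intensity values were used for detection and for alternatives. The main values are the authors' processed log2 ratios of sample over parental pool, deposited with the series; how they were normalized is not given in the sources used here. Likewise the authors' deposited comparison table gives a p-value without naming its test.

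From 41174 mouse probes, 40820 exceeded background by 2 background SDs in either channel on at least 2 of the 4 control-kd arrays and were tested, and 354 were set aside. Symbols come from the platform annotation, updated through RefSeq (GRCm38.p6), and a gene with several probes is represented by the brightest. Line means were fitted with limma 3.58.1 (lmFit, eBayes) in R 4.3.3, with 1 mean per group. The difference between lines was fitted on arrays with a dye term. Both fits were tested on simulated data. Plots used matplotlib 3.10.9 in Python 3.11.15.

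The rule for named genes takes the 15 largest rises and falls called on the same side on all 4 arrays, the members of each list with the largest called changes, and genes on which the lines disagree; the text names part of these, and Mest, Cdh1, Lima1, Actg1 and Srf from outside it. The members, gene lists and alternatives were chosen with earlier results of these data known. Alternatives covered background, normalization, filters, blocks, and leaving out lines or arrays. Precision is limited by the number of lines, by a single parental pool whose own spread is not measured, and by an error that is shared with the Taf5-kd lines.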

Additional observations from a re-analysis of the deposited data

Results flagged for a closer look

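The 2 control-kd lines differed from each other, by the test of line 1 minus line 2 on the arrays (limma, adjusted p under 0.05), for 74 of the 117 named genes, against 17.7% of all genes with a symbol. Some of the named genes were chosen because the lines disagree on them, and others for large changes, so nothing is read from this share. In this group of genes the log2 difference was largest for genes on opposite sides of the pool or at unequal distances from it: it was 1.36 for Dppa3, 1.32 for Lefty1, 1.06 for Nnat, 5.38 for Eif2s3y, 2.73 for Uty, 1.23 for Fam169b and 1.21 for Pla2g5, where line 1 was higher, and -1.13 for Igf2, -1.36 for Dusp4, -4.45 for Srgn, -3.61 for Cubn, -2.98 for Gata6, -2.51 for Hs3st1 and -4.68 for Mest, where it was lower.

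Smaller differences with line 1 higher were 0.37 for Taf5, 0.25 for Cobl, 0.27 for Col1a1, 0.44 for Prtg, 0.25 for Gbp2, 0.44 for Nanog, 0.32 for Gdf3, 0.43 for Zscan4f, 0.27 for H2-K1, 0.22 for Dicer1, 0.34 for Abcc1 and 0.21 for Abcg2. Line 1 also exceeded line 2 by 0.54 for Cat, 0.34 for Slc7a5, 0.26 for Pdk1, 0.31 for Pola1, 0.81 for Nusap1, 0.39 for Bub1b, 0.26 for Igfbp4 and 0.71 for Lima1.

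With line 1 lower, the differences were -0.83 for Ankrd33b, -0.32 for Rpl39l, -0.26 for Gbx2, -0.70 for Defa3, -0.74 for Defa24, -0.67 for Defa-ps6, -0.79 for Epas1, -0.20 for Nr0b1, -0.24 for Prss23, -0.98 for Slc39a8, -0.35 for Krt8 and -0.32 for Ccn1. Lower values in line 1 were also measured, with differences of -0.22 for Wls, -0.50 for Pou5f1, -0.28 for Klf5, -0.21 for Klf4, -0.48 for Lin28b, -0.61 for Pou3f1, -0.67 for Sox11, -0.40 for Id2, -0.72 for Sparc, -0.30 for Lamc1, -0.70 for Cald1 and -0.54 for Ccn2. The remaining ones were -0.62 for F3, -0.91 for Anxa1, -0.39 for Fn1, -0.37 for Cd68, -0.57 for Spry4, -0.41 for Meg3, -0.33 for Dnmt3b, -0.39 for Tnrc6a, -0.45 for Perp, -0.46 for Nqo1, -0.49 for Hyou1 and -0.29 for Cth. Among the other genes the values were -0.43 for Slc2a1, -0.40 for Cdkn2b, -0.60 for Taf13 and -0.34 for Actg1.

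Of the 4 arrays of a gene, 1 stood apart from the rest by Dixon's 95% criterion in 2 named genes: Nes at -1.35 on array 1 of line 1, and Cldn7 at -2.27 on array 2 of line 1. Chance gives such a gap in about 1 of 20 genes.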

How the results depend on the processing

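The count of 9962 called probes (3932 higher, 6030 lower) was 1618 (660 and 958) with scanner values after normexp and median centring, 6293 (2525 and 3768) with 1 probe per gene, where 25120 probes were tested, 4560 (1582 and 2978) without control-kd line 1 and 4872 (1637 and 3235) without control-kd line 2, which leave 1 line in the group, whose spread is assumed to be that of the Taf5-kd lines. The number called higher was 2506 with the control-kd lines fitted alone and 6440 with arrays in place of line means and no dye term. Leaving out 1 array at a time gave 9268 to 9979 calls. In each of these settings 0 of the calls shared with the reported fit had the opposite sign. Where the control-kd arrays and values were unchanged, this was fixed in advance. The other settings reuse the same arrays, so nothing is read from it. Between the lines, 6074 called probes (2997 higher in line 1, 3077 lower) became 380 (15 and 365) with median centring. The cause of these shifts was not tested.

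In the processed values the deviations of same-numbered arrays of different lines correlated at -0.437 to -0.156. The number is also the dye, and values from which a dye deviation common to the lines has been removed would correlate below 0 whatever the pairing, so this check does not settle whether the numbers pair the arrays; whether the authors removed one was not tested. A fit with the replicate block (array number, which is also the dye) and the line as a random block called 14284 probes, 6083 of them higher. Taf5 (0.35, adjusted p = 0.00571) and Mest (-3.88, adjusted p = 0.00449) passed in that fit.

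Median centring turned Kdm5d from -0.39 to 0.058, not called there, the cause not tested, and lost the calls of Fn1, Meg3, Hyou1, Tnrc6a, Dicer1, Slc7a5 and Cd68, among others, and normexp with loess those of Gbx2 (adjusted p = 0.0667), Epas1 (0.0501), Pou5f1 (0.0528), Cdx2 (0.0844), Dusp4 (0.0524), Nusap1 (0.0622) and Taf13 (0.0531). With median centring the number called lower was 5 of the primed epiblast, 2 of the fibroblast and 0 of the blood and RNA interference lists, and the number higher was 5 of the G1/S, 3 of the DNA methylation and 0 of the p53 list. The lists of primitive endoderm, neuroectoderm, germline, RNA interference, p53, NRF2, metal handling, ATF4, heat shock, ribosomal protein, oxidative phosphorylation, cholesterol and Y-linked genes had medians on both sides of 0 over the settings. A slide or scan block was not run, because the files give none that holds over 1 array. Probes near background limit small differences.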

Other observations

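Further lists are given here by their counts, against 11.6% higher and 17.5% lower among all genes. Of 23 germline genes 2 were called higher and 4 lower, with Dazl, a germ cell RNA-binding protein, at 0.97 ± 0.10 (SE). Of 17 genes of the 2-cell embryo and the oocyte 2 were higher and 3 lower, with 1 and 0 lower without line 1 and line 2, and Zscan4f, from a family of near-identical genes that may share signal, was -0.94 and -0.96 in line 1 and -1.37 and -1.40 in line 2; its call was lost without line 2 (adjusted p = 0.0787). Of 12 drug efflux transporters 4 were lower and 1 higher, with 2 lower without either line, among them Abcc1 at -1.11 ± 0.12 (SE) and Abcg2 at -0.84 ± 0.07 (SE). Of 18 NRF2 and oxidative stress genes 5 were higher and 3 lower, and 4 and 2 were higher without line 1 and line 2, with the catalase gene Cat at 0.94 ± 0.14 (SE) and Nqo1, a quinone reductase, at 0.83 ± 0.16 (SE), whose call was lost without line 2 (adjusted p = 0.117).

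Of 26 amino acid and ATF4 response genes 7 were higher and 4 lower, with 3 and 4 higher without line 1 and line 2. Cth, which makes cysteine, was at 0.91 ± 0.14 (SE), its call lost without line 1 (adjusted p = 0.0589) or line 2 (0.0971), and Slc7a5, a transporter of large neutral amino acids, at -0.75 ± 0.09 (SE). Hspb1, a small heat shock protein, was at 1.40 ± 0.07 (SE) in a list of 13 with 2 higher and 0 lower. Of 51 cytosolic ribosomal protein genes 10 were lower and 0 higher, and 5 were lower without either line, with Rpl13 at -1.23 ± 0.07 (SE) and Rps28 at -0.79 ± 0.04 (SE). Of 49 oxidative phosphorylation genes 9 were higher and 8 lower, 2 and 2 without line 1 and 3 and 3 without line 2. Of 24 cholesterol and fatty acid synthesis genes 7 were lower and 2 higher, and 9 and 4 were lower without line 1 and line 2, with Sc5d, a sterol desaturase, at -0.90 ± 0.06 (SE).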
